A study of Oryza sativa with 35 samples.

Results

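The loci described here are 353 rows of a rice count table that lie in locus order around Gn1, a grain number locus on the short arm of chromosome 1. They were taken by locus number from LOC_Os01g02240 to LOC_Os01g18690, with a floor of 100 unique molecular identifiers (UMIs, tags that mark single captured RNA molecules) summed over all libraries, and OsCKX2 (LOC_Os01g10110) was kept at any count. The stretch held 1489 loci, of which 639 had 0 UMIs and 498 had 1 to 99. The 353 members stood against 1039 loci on the rest of chromosome 1 and 9907 in the whole table that met the same floor, out of 55801 loci in all. The members were thus chosen by locus number and by their summed UMIs over all libraries, and those sums are a description. LOC_Os01g16550 and LOC_Os01g12710 lay just inside the floor with 100 UMIs each, and LOC_Os01g07080 and LOC_Os01g12660 just outside it with 99. A locus that is high in 1 line can pass such a floor through that line, as LOC_Os01g05510 and LOC_Os01g08860 did with totals of 101 and 102 UMIs. LOC_Os01g03020, LOC_Os01g03340, LOC_Os01g03360, LOC_Os01g03570 and LOC_Os01g07950 took most of their 381, 247, 362, 167 and 127 UMIs from Koshihikari. LOC_Os01g03680 took most of its 976 UMIs from NIL-Gn1. Tests of such loci are a description, also where counts and shares below include them.

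The libraries came from inflorescence meristems, the growing tips that form the branches and spikelets of the panicle, and were made by CEL-Seq2, which counts the 3′ ends of transcripts by UMI. NIL-Gn1 gave 8 libraries from tissue coded R1, 8 from R2, 1 from R4 and 2 from R5. Koshihikari, a japonica cultivar, gave 5, 5, 3 and 3. Both lines were grown in short days in climate chambers, and the labels do not define the R codes, name the donor of NIL-Gn1 or give its allele or the ends of its segment. R1 and R2 are called early below and R4 and R5 late, by number alone. Whether replicate libraries stem from different plants is not stated in the labels, so the p-values rest on library spread that may be technical. Totals ran from 76743 to 375071 UMIs per library, with medians of 186188 in NIL-Gn1 and 109532 in Koshihikari. Koshihikari R2 replicate 1 stood apart for several loci named here, and results that rest on it are given with and without it. The meristem genes OSH1, OSH15, TAW1, OsMADS14, OsMADS15 and OsMADS18 had UMIs in all 35 libraries and OsMADS34 in 26, while the RBCS genes of green leaf had 8 and 9 UMIs in all. In such bulk tissue, fewer cells of a type and less RNA per cell cannot be told apart.

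A near-isogenic line carries a short chromosome segment of a donor in the genetic background of a recurrent parent, so the lines are expected to differ in sequence in that segment and little elsewhere. Gn1 was mapped as a locus for grains per panicle, and its gene Gn1a is OsCKX2, a cytokinin oxidase/dehydrogenase that degrades cytokinin. Reduced OsCKX2 activity is known to let cytokinin build up in inflorescence meristems and to raise the number of spikelets.

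OsCKX2 itself was scarcely seen. LOC_Os01g10110 had 1 UMI in NIL-Gn1, in an R2 library, against 2 UMIs in Koshihikari, 1 in an R1 and 1 in an R2 library. All R4 and R5 libraries of both lines had 0. At these counts a difference between the lines was not detectable, and the gene could not serve to check the labels. Its chromosome 1 relative OsCKX1 had 0 UMIs in all libraries. Of the 7 placed members of the cytokinin oxidase family 2 were tested, OsCKX3 and OsCKX11 on other chromosomes, and neither was called between the lines over R1 and R2 (log2 fold change 0.16 and 0.29 in NIL-Gn1 over Koshihikari).

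The lines were compared first over R1 and R2 together, which hold 16 NIL-Gn1 and 10 Koshihikari libraries, with edgeR's quasi-likelihood test and Benjamini-Hochberg adjustment over all 7406 tested loci. A locus is called below where its adjusted p was under 0.05, and every log2 fold change is NIL-Gn1 over Koshihikari unless stated. Of the members 262 passed the filter on low counts. Among these, 21 were called (8.02%), against 2.32% of all tested loci. Of the 21, 8 were higher in NIL-Gn1 (3.05% of members, against 0.608% of all tested loci) and 13 lower (4.96%, against 1.71%). Without Koshihikari R2 replicate 1 the count was 19, 7 higher and 12 lower. The rest of chromosome 1 had 13 calls among 750 tested loci (1.73%). A difference of 1 or more on the log2 scale, in either direction, was seen in 15 members (5.73%), against 2.40% of all tested loci. The median size was 0.25 for members and 0.21 for all tested loci. An unadjusted p under 0.05 was reached by 67 members (25.6%), against 14% of all tested loci.

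**Figure D1:**
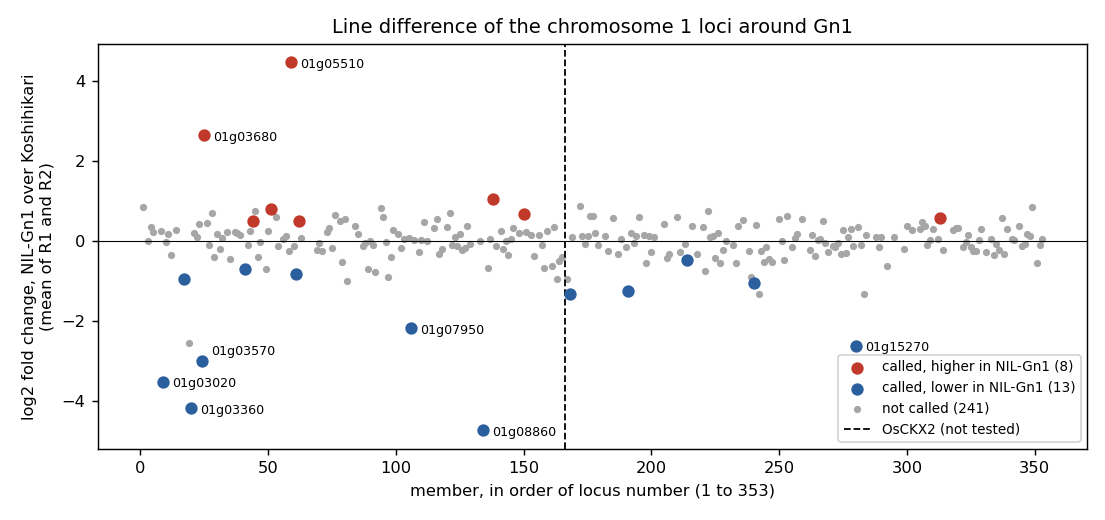
Log2 fold change of NIL-Gn1 over Koshihikari, averaged over R1 and R2, for the 262 tested members by their order along chromosome 1. Red points mark the 8 members called higher in NIL-Gn1, blue points the 13 called lower and grey points the 241 not called, and the dashed line marks OsCKX2. Of the 21 called members 15 lie left of OsCKX2 and 6 right of it.

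Some loci had very few UMIs in 1 line. How reads of donor sequence were assigned to loci is not given in the sources used here, and its part in such low counts was not tested. A locus was taken as near off where 1 line had at least 20 UMIs over its R1 and R2 libraries and the other had a level at least 8-fold lower per UMI sequenced, so the R4 and R5 libraries were not used for the choice. Over R1 and R2, 5 members met this rule, 4 near off in NIL-Gn1 (LOC_Os01g03020, LOC_Os01g03340, LOC_Os01g03360 and LOC_Os01g08860) and LOC_Os01g05510 near off in Koshihikari. Just outside it were LOC_Os01g03570 (7.98-fold), LOC_Os01g03680 (6.46-fold), LOC_Os01g15270 (5.67-fold) and LOC_Os01g07950 (4.29-fold). Without Koshihikari R2 replicate 1, which gave 1487 of its 3196 early Koshihikari UMIs, LOC_Os01g15270 stood at 3.29-fold. The early ratios describe the choice, and the edgeR tests over R1 and R2 given below for these loci use the same values and are no independent support. The share of all loci that meet the near-off rule was not taken, so the count of 5 members is a description.

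LOC_Os01g03020 was the clearest of them. At R1 it had 8.38 to 24.5 CPM in the 8 NIL-Gn1 libraries (median 17.7), against 148, 119.9, 229, 217 and 205 CPM in the Koshihikari libraries. CPM here are counts scaled to the library's UMIs in tested loci (counts per 1e6, after TMM scaling). At R2 it had 0 to 30.4 CPM in NIL-Gn1 (median 13.4), against 97.7, 212, 135, 181 and 323 CPM in Koshihikari. The lines did not overlap at either code, and NIL-Gn1 kept a low level, with a UMI in 14 of 16 libraries. The NIL-Gn1 R4 library had 11.9 CPM, against 164, 185 and 266 CPM in Koshihikari R4. At R5 NIL-Gn1 had 5.97 and 15.2 CPM, against 241, 155 and 208 CPM in Koshihikari. Summed over R4 and R5 its UMIs were 5 in NIL-Gn1 and 120 in Koshihikari, or 0.0517 of the Koshihikari level per UMI sequenced (95% exact counting interval 0.0165 to 0.124). Such intervals cover counting error only. The log2 fold change was -3.51 over R1 and R2 (SE 0.245, adjusted p = 1.31e-24 by edgeR) and -4.21 over R4 and R5 (SE 0.520, adjusted p = 1.63e-09). LOC_Os01g03020 took most of its 381 UMIs from Koshihikari, so its calls and its lack of overlap are a description.

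LOC_Os01g03570 had a similar pattern at a lower level. At R1 it had 0 to 14.4 CPM in NIL-Gn1 (median 2.96), against 74.0, 76.3, 91.7, 61.1 and 103 CPM in Koshihikari. At R2 NIL-Gn1 had 5.10 to 30.6 CPM (median 15.9), against 109.9, 35.4, 97.1, 55.8 and 98.4 CPM in Koshihikari. Every NIL-Gn1 library lay under every Koshihikari library in both. At R4 it had 11.9 CPM in NIL-Gn1, against 65.8, 82.0 and 66.4 CPM in Koshihikari. At R5 it had 5.97 and 0 CPM in NIL-Gn1, against 106, 33.2 and 43.4 CPM in Koshihikari. The log2 fold change was -2.98 over R1 and R2 (SE 0.351, adjusted p = 1.26e-10 by edgeR). Over R4 and R5 it was -3.05 (SE 0.747, adjusted p = 0.0174), a call lost without either NIL-Gn1 R5 library or without Koshihikari R5 replicate 2 (adjusted p 0.0629 to 0.0837). The locus took most of its 167 UMIs from Koshihikari, so its calls and its place among the non-overlapping members are a description. LOC_Os01g03020 and LOC_Os01g03570 were the only 2 tested members whose lines did not overlap over all 35 libraries (0.763%, against 0.0405% or 3 of all tested loci). Over the R1 and R2 libraries the same 2 did not overlap (0.763%, against 0.054%).

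OsHsp18.0 (LOC_Os01g08860), a small heat shock protein, had very few UMIs in NIL-Gn1. It had a UMI in 3 of the 16 early NIL-Gn1 libraries, with 8.77 CPM as the highest, and 0 UMIs in all 8 NIL-Gn1 R2 libraries. Koshihikari had 31.7, 76.3, 36.7, 6.79 and 22.3 CPM at R1, and 85.5, 82.6, 32.4, 69.7 and 42.2 CPM at R2. The lines overlapped at R1 through the Koshihikari library at 6.79 CPM, and not at R2. At R4 NIL-Gn1 had 0 CPM, against 43.8, 20.5 and 44.3 CPM in Koshihikari. At R5 NIL-Gn1 had 5.97 and 0 CPM, against 164, 122 and 104 CPM in Koshihikari. Summed over R4 and R5 it had 1 UMI in NIL-Gn1 and 50 UMIs in Koshihikari, or 0.0248 of the Koshihikari level (95% exact counting interval 0.000616 to 0.145). OsHsp18.0 met the floor of 100 UMIs through Koshihikari, so its log2 fold changes of -4.72 over R1 and R2 and -5.02 over R4 and R5, both called, are a description.

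LOC_Os01g05510 ran the other way. At R1 it had 0 to 85.7 CPM in NIL-Gn1 (median 25.5), against 1 UMI in 1 Koshihikari library (10.9 CPM) and 0 in the other 4. At R2 it had 0 to 64.0 CPM in NIL-Gn1 (median 28.5), against 0 in all 5 Koshihikari libraries. A UMI was found in 14 of 16 early NIL-Gn1 libraries, and the lines overlapped only through NIL-Gn1 libraries at or below 10.9 CPM. At R4 it had 23.7 CPM in NIL-Gn1, and at R5 23.9 and 45.7 CPM, against 0 in the 6 Koshihikari libraries of these codes. With 13 UMIs against 0, its level in R4 and R5 tissue was at least 5.38-fold higher in NIL-Gn1 against a floor of 3 counts over the Koshihikari group, and the exact 95% counting interval of the ratio began lower, at 3.78. Early UMIs were 87 in NIL-Gn1 and 1 in Koshihikari. The locus met the floor of 100 UMIs through NIL-Gn1, so its place among the early calls is a description. At R2 alone the call was lost without any of the 5 Koshihikari libraries or NIL-Gn1 replicate 2, 5 or 6 (adjusted p 0.0522 to 0.119).

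**Figure D2:**
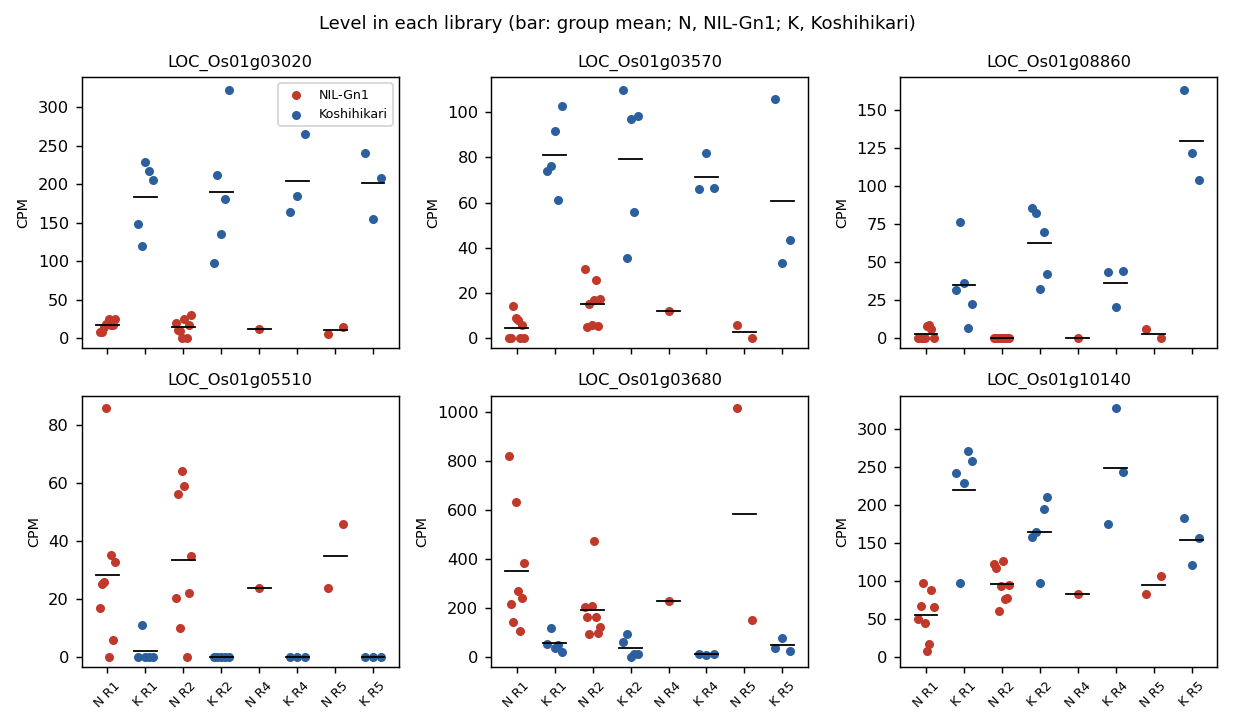
Level in CPM of 6 members in each of the 35 libraries, with NIL-Gn1 (N, red) left of Koshihikari (K, blue) at each R code and a bar at the group mean. NIL-Gn1 libraries of LOC_Os01g03020 stayed at or below 30.4 CPM and those of Koshihikari at or above 97.7 CPM, while LOC_Os01g05510 was seen in Koshihikari in 1 library only.

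The remaining near-off loci took most of their early Koshihikari UMIs from 1 library, R2 replicate 1. LOC_Os01g03360 had 0 to 26.3 CPM at R1 in NIL-Gn1 (median 7.47), against 95.2, 119.9, 128, 95.01 and 89.3 CPM in Koshihikari, with no overlap. At R2 NIL-Gn1 had 5.10 to 30.6 CPM (median 12.1), against 2345, 142, 146, 0 and 0 CPM in Koshihikari, where replicate 1 was far above and replicates 4 and 5 below the NIL-Gn1 range. Of its 299 early Koshihikari UMIs, 192 came from that replicate. In R4 and R5 tissue the lines had 15 UMIs each. Those of NIL-Gn1 all came from 1 of its 3 libraries, an R5 library at 89.5 CPM, and those of Koshihikari from 5 of 6. The log2 fold change over R1 and R2 was -4.17 (SE 0.708, adjusted p = 0.000697 by edgeR), and without Koshihikari R2 replicate 1 it was -2.86 (adjusted p = 1.70e-07). Without that library the counting ratio of Koshihikari to NIL-Gn1 was 7.81 and the locus left the near-off rule. LOC_Os01g03360 took most of its 362 UMIs from Koshihikari, so its calls are a description. LOC_Os01g03340 had 0 to 35.1 CPM at R1 in NIL-Gn1 (median 6.97), against 10.6, 32.7, 27.5, 20.4 and 26.8 CPM in Koshihikari, and at R2 0 to 30.1 CPM (median 14.2), against 1343, 47.2, 48.5, 13.9 and 0 CPM in Koshihikari. The lines overlapped at both codes, and 110 of the 140 early Koshihikari UMIs came from R2 replicate 1. The R2 call of this locus (-4.16 on the log2 scale, SE 0.868, adjusted p = 0.0152 by edgeR) was lost without that library (-1.04, adjusted p = 0.709). It was also lost by limma-voom (adjusted p = 0.405) and by edgeR with the replicate number as a block (0.237). LOC_Os01g03340 was not called by edgeR over R1 and R2 (-2.54, SE 0.858, adjusted p = 0.132) or at R1 alone (-0.93, adjusted p = 0.868). In R4 and R5 tissue the order was opposite, with 48 UMIs of LOC_Os01g03340 in the NIL-Gn1 libraries and 23 in those of Koshihikari. This order rests mainly on 1 NIL-Gn1 R5 library at 209 CPM, where the other had 30.5 CPM, and the lines overlapped.

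LOC_Os01g15270 also peaked in that library. At R1 it had 209 to 1169 CPM in NIL-Gn1 (median 335), against 1829, 1930.0, 2027, 1771 and 1549 CPM in Koshihikari. At R2 it had 271 to 769 CPM in NIL-Gn1 (median 375), against 18161, 2136, 1683, 126 and 393 CPM in Koshihikari. The lines did not overlap at R1 and did at R2, where Koshihikari replicates 4 and 5 lay within or below the NIL-Gn1 range. The log2 fold change over R1 and R2 was -2.61 (SE 0.459, adjusted p = 0.00106 by edgeR). Without Koshihikari R2 replicate 1 it was -1.62 (adjusted p = 0.00632), and a fit that blocked on the replicate number lost the call (-2.06, adjusted p = 0.105). At R4 it had 419 CPM in NIL-Gn1, against 142, 246 and 232 CPM in Koshihikari, and at R5 2869.7 and 503 CPM, against 452, 908 and 243 CPM.

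LOC_Os01g03680 was higher in NIL-Gn1. At R1 it had 105 to 819 CPM in NIL-Gn1 (median 256), against 52.9, 119.9, 36.7, 47.5 and 22.3 CPM in Koshihikari. At R2 it had 95.3 to 472 CPM in NIL-Gn1 (median 163), against 61.1, 94.4, 0, 13.9 and 14.1 CPM in Koshihikari. The lines overlapped at R1 through 1 Koshihikari library and not at R2. At R4 it had 229 CPM in NIL-Gn1, against 11.0, 10.3 and 11.1 CPM in Koshihikari. At R5 it had 1014 and 152 CPM in NIL-Gn1, against 38.5, 77.5 and 26.1 CPM in Koshihikari. Its log2 fold change was 2.65 over R1 and R2 (SE 0.509, adjusted p = 0.00253 by edgeR) and 4.05 over R4 and R5 (SE 0.855, adjusted p = 0.0139). The late call was lost without NIL-Gn1 R5 replicate 1 (3.00, adjusted p = 0.256). LOC_Os01g03680 took most of its 976 UMIs from NIL-Gn1, so its calls are a description.

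LOC_Os01g07950 had 0 to 35.5 CPM at R1 in NIL-Gn1 (median 16.8), against 31.7, 65.4, 36.7, 40.7 and 53.6 CPM in Koshihikari. The R2 libraries had 0 to 17.1 CPM in NIL-Gn1 (median 5.33), against 73.3, 70.8, 21.6, 83.7 and 42.2 CPM in Koshihikari, with no overlap, while at R1 1 Koshihikari library lay within the NIL-Gn1 range. Over R1 and R2 the log2 fold change was -2.18 (SE 0.420, adjusted p = 0.000275 by edgeR). In R4 and R5 tissue 5 UMIs were counted in NIL-Gn1 and 37 in Koshihikari, and the difference was not called (log2 fold change -2.80, SE 0.827, adjusted p = 0.0739).

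On the low-numbered side of OsCKX2, 15 of 125 tested members were called (12%), and on the high-numbered side 6 of 137 (4.38%). The called members nearest OsCKX2 were LOC_Os01g09510 below and LOC_Os01g10140 above. LOC_Os01g09510 was higher in NIL-Gn1, at 527 to 779 CPM (median 689) against 275, 425, 477, 394 and 335 CPM in Koshihikari at R1, with no overlap. In R2 tissue it had 557 to 904 CPM in NIL-Gn1 (median 708), against 427, 555, 475, 432 and 632 CPM in Koshihikari, 1 of which lay within the NIL-Gn1 range. Its log2 fold change over R1 and R2 was 0.69 (SE 0.104, adjusted p = 9.00e-07 by edgeR). Over R4 and R5 it was 0.26 (SE 0.171, adjusted p = 0.534).

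LOC_Os01g10140 was lower in NIL-Gn1, at 8.16 to 98.1 CPM at R1 (median 58.0) against 243, 98.1, 229, 271 and 259 CPM in Koshihikari. The lines did not overlap at R1, though they came close at 98.1 CPM in Koshihikari replicate 2. The R2 libraries had 60.2 to 126 CPM in NIL-Gn1 (median 94.4), against 159, 165, 97.1, 195 and 211 CPM in Koshihikari, 1 of which lay within the NIL-Gn1 range. At R4 it had 83.0 CPM in NIL-Gn1, against 175, 328 and 243 CPM in Koshihikari, and at R5 83.5 and 107 CPM, against 183, 122 and 156 CPM. Its log2 fold change was -1.31 over R1 and R2 (SE 0.190, adjusted p = 3.22e-07 by edgeR), and the call was kept in every alternative fit. Over R4 and R5, where the lines did not overlap, it was -1.17 (SE 0.339, adjusted p = 0.0724).

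Further from OsCKX2 on that side, LOC_Os01g11230 averaged 37.5 ± 21.1 CPM in NIL-Gn1, against 85.2 ± 56.7 CPM in Koshihikari over R1 and R2 (SD, n = 16 and 10; log2 fold change -1.24, adjusted p = 0.00379 by edgeR). LOC_Os01g13260 averaged 89.6 ± 28.5 CPM in NIL-Gn1, against 181 ± 63.3 CPM in Koshihikari (-1.03, adjusted p = 3.95e-05). At R2 its lines did not overlap. LOC_Os01g12650 averaged 217 ± 49.2 CPM in NIL-Gn1, against 296 ± 73.3 CPM in Koshihikari (-0.46, adjusted p = 0.0374), but this call was lost in 15 of 34 alternative fits, among them those without Koshihikari R1 replicate 1, 2 or 3, Koshihikari R2 replicate 2 or 3, NIL-Gn1 R1 replicate 2, 3, 5, 6 or 8, or NIL-Gn1 R2 replicate 2, 4 or 8 (adjusted p 0.0507 to 0.227). CAM1-3 (LOC_Os01g16240), a calmodulin gene, was the highest-numbered member called. It averaged 301 ± 40.2 CPM in NIL-Gn1, against 203 ± 41.5 CPM in Koshihikari (0.59, SE 0.134, adjusted p = 0.00295).

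Beside a pair of histone genes, 5 further members below OsCKX2 were called, 2 lower and 3 higher in NIL-Gn1. LOC_Os01g04650 averaged 182 ± 48.1 CPM in NIL-Gn1, against 293 ± 31.8 CPM in Koshihikari over R1 and R2 (SD, n = 16 and 10; log2 fold change -0.69, adjusted p = 0.000346 by edgeR). At R2 its lines did not overlap, at 81.5 to 209 CPM in NIL-Gn1 against 253 to 293 CPM in Koshihikari. LOC_Os01g03180 averaged 52.8 ± 19.2 CPM in NIL-Gn1, against 100.3 ± 45.9 CPM in Koshihikari (-0.94, adjusted p = 0.0138), a call lost without Koshihikari R1 replicate 5 or Koshihikari R2 replicate 1 or 3 (adjusted p 0.0578 to 0.0692). LOC_Os01g09000 averaged 89.6 ± 25.1 CPM in NIL-Gn1, against 42.6 ± 20.1 CPM in Koshihikari (1.05, adjusted p = 0.00569). With the replicate number as a block in the edgeR fit this call was lost (0.96, adjusted p = 0.0583), as was that of LOC_Os01g03180 (-0.88, adjusted p = 0.117). LOC_Os01g05070 averaged 140.0 ± 38.7 CPM in NIL-Gn1, against 84.0 ± 25.4 CPM in Koshihikari (0.80, adjusted p = 0.0114), a call lost without Koshihikari R2 replicate 3 (0.70, adjusted p = 0.0555). LOC_Os01g04730 averaged 226 ± 39.0 CPM in NIL-Gn1, against 157 ± 44.4 CPM in Koshihikari (0.52, adjusted p = 0.0421), a call lost in 14 of 34 fits. These include the fits without Koshihikari R1 replicate 3 or 5, Koshihikari R2 replicate 1, 2 or 4, NIL-Gn1 R1 replicate 1, 3, 4 or 6, or NIL-Gn1 R2 replicate 5, 7 or 9 (adjusted p 0.0521 to 0.152).

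The placed genes hold 6 histone H2B loci, which package DNA in nucleosomes. Of these 5 were tested. H2B.3 (LOC_Os01g05610) and its neighbour H2B.4 (LOC_Os01g05630) were called in opposite directions. H2B.3 had 255 to 369 CPM at R1 in NIL-Gn1 (median 315), against 560, 578, 578, 455 and 442 CPM in Koshihikari, with no overlap. In R2 tissue it had 171 to 434 CPM in NIL-Gn1 (median 282), against 208, 566, 588, 683 and 689 CPM, where Koshihikari replicate 1 was low. Its log2 fold change was -0.81 over R1 and R2 (SE 0.122, adjusted p = 1.20e-06 by edgeR). At R4 H2B.3 had 339.8 CPM in NIL-Gn1, against 745, 646 and 808 CPM in Koshihikari, and at R5 137 and 183 CPM, against 462, 387 and 660.2 CPM, with no overlap at either code. The log2 fold change over R4 and R5 was -1.42 (SE 0.238, adjusted p = 3.96e-05).

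H2B.4 (LOC_Os01g05630) had 295 to 498 CPM at R1 in NIL-Gn1 (median 376), against 370.1, 338, 266, 224 and 219 CPM in Koshihikari. The R2 libraries had 286 to 467 CPM in NIL-Gn1 (median 359), against 134, 271, 291, 265 and 281 CPM in Koshihikari. Its log2 fold change was 0.52 over R1 and R2 (SE 0.129, adjusted p = 0.00910 by edgeR) and 0.11 over R4 and R5 (SE 0.234, adjusted p = 0.900). The pair was singled out after its values were seen, so the following shares are a description. H2B.3 made up 44.7 ± 4.24% of the UMIs of both loci at R1 in NIL-Gn1 and 65.1 ± 3.39% in Koshihikari (SD, n = 8 and 5). At R2 it was 43.2 ± 4.22% in NIL-Gn1 and 67.7 ± 4.46% in Koshihikari. At R4 it was 47.5% in NIL-Gn1 and 74.5 ± 4.45% in Koshihikari, and at R5 45.6 ± 9.33% and 66.5 ± 2.73%. No library of NIL-Gn1 was above 52.2% and none of Koshihikari below 60.2%. The summed level of the pair at R1 was 693 ± 97.7 CPM in NIL-Gn1, against 806 ± 129 CPM in Koshihikari, and at R2 653 ± 150 CPM in NIL-Gn1, against 795 ± 259 CPM in Koshihikari, with overlap at both. At R4 the sum was 715 CPM in NIL-Gn1, against 872 to 1151 CPM in Koshihikari, and at R5 351 and 352 CPM in NIL-Gn1, against 609 to 956 CPM in Koshihikari, with no overlap at either. Koshihikari R2 replicate 1, low for both loci, had the lowest share of its group at 60.7%. H2B genes are near-identical copies, and how the authors' counting split reads between them is not given in the sources used here, so both values are uncertain. H2B.5, H2B.6 and H2B.7 were not called over R1 and R2 (log2 fold change -0.25, -0.03 and -0.21).

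**Figure D3:**
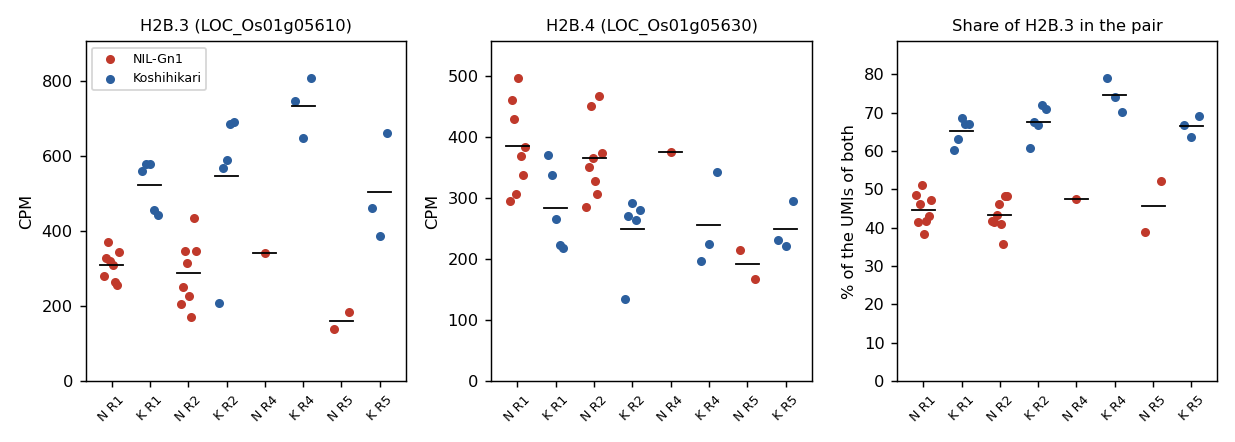
Level in CPM of H2B.3 (left) and H2B.4 (middle) and the share of H2B.3 in the UMIs of both (right, percent) in each library, with NIL-Gn1 (N, red) left of Koshihikari (K, blue) at each R code and a bar at the group mean. In the right panel NIL-Gn1 libraries lie at 35.7 to 52.2% and Koshihikari libraries at 60.2 to 79.1%.

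The order of calls along the chromosome was read from locus numbers, since coordinates were not used here. Genotypes were not measured, so the positions below are those of called loci and not of the segment itself. The lowest-numbered called member was LOC_Os01g03020, with 5 tested members before it. The highest-numbered was LOC_Os01g16240, with 31 tested members after it. Beyond it, 191 tested loci passed without a call up to LOC_Os01g40700 (log2 fold change -0.76, SE 0.212, adjusted p = 0.0282 by edgeR). Among the 718 tested loci beyond the stretch 12 were called (1.67%). Before it, 26 loci were tested and LOC_Os01g01340 was called (-2.19, SE 0.553, adjusted p = 0.0274).

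Within the stretch the calls were uneven. In 18 blocks of 20 members in locus order (13 in the last), 13 held a call. The first 4 blocks, from LOC_Os01g02334 to LOC_Os01g07070, had 23.1, 11.8, 23.5 and 15.4% of their tested members called. No later block exceeded 13.3%, and 5 had none. Of the 12 called members that differed by 1 or more on the log2 scale, 8 lay below OsCKX2. Of all 21 called members 15 did. The median size per block was 0.23 to 0.34 in the first 4 blocks. It was highest, at 0.45, in the block from LOC_Os01g09890 to LOC_Os01g10690. Between neighbouring called members, 32 tested members lay between LOC_Os01g13260 and LOC_Os01g15270, and 30 between LOC_Os01g05630 and LOC_Os01g07950. In blocks of 20 tested loci over the whole chromosome, 21 of 51 blocks held a call, 8 held at least 2 and 3 held at least 3. The 3 were the neighbouring blocks from LOC_Os01g01740 to LOC_Os01g06010, with 3, 3 and 5 calls.

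**Figure D4:**
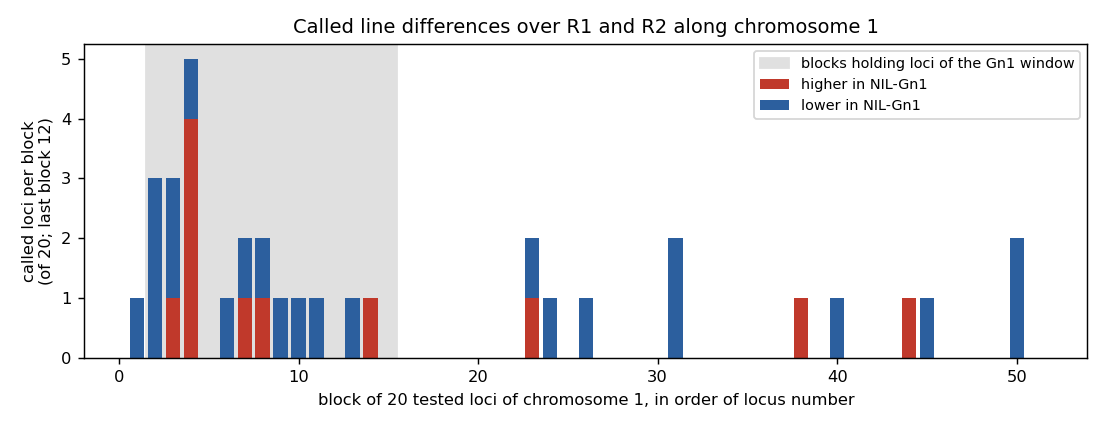
Number of called loci in each block of 20 tested loci along chromosome 1 (12 in the last), over R1 and R2, stacked as higher (red) and lower (blue) in NIL-Gn1. Grey marks the blocks that hold loci of the stretch around Gn1, where blocks 2 to 4 have 3, 3 and 5 calls and no block elsewhere has more than 2.

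The line difference was next taken at R1 and R2 separately, which share no libraries. At R1 8 members were called, 2 higher and 6 lower (3.05%, against 0.675% of all tested loci, where 0.189% were higher and 0.486% lower, and 0 of 750 on the rest of the chromosome). They were LOC_Os01g03020, LOC_Os01g03570, LOC_Os01g03680, LOC_Os01g05610, LOC_Os01g08860, LOC_Os01g09510, LOC_Os01g10140 and LOC_Os01g13260. The LOC_Os01g03680 call at R1 was lost without Koshihikari R1 replicate 1, 3, 4 or 5 or NIL-Gn1 R1 replicate 1 or 4 (adjusted p 0.0545 to 0.129), that of LOC_Os01g05610 without Koshihikari R1 replicate 3 (0.0517) and that of LOC_Os01g08860 without Koshihikari R1 replicate 2 (0.1003). At R2 10 were called, 1 higher and 9 lower (3.82%, against 0.5% of all tested loci, where 0.0675% were higher and 0.432% lower). They were LOC_Os01g05510 among the higher and LOC_Os01g03020, LOC_Os01g03340, LOC_Os01g03360, LOC_Os01g03570, LOC_Os01g04650, LOC_Os01g05610, LOC_Os01g07950, LOC_Os01g08860 and LOC_Os01g15270 among the lower. Without Koshihikari R2 replicate 1 the count at R2 was 5, with the calls of LOC_Os01g03340, LOC_Os01g04650, LOC_Os01g05510, LOC_Os01g07950 and LOC_Os01g15270 lost (adjusted p 0.0511 to 0.709). The R2 call of LOC_Os01g04650 was also lost without Koshihikari R2 replicate 2, 3 or 4 or NIL-Gn1 R2 replicate 1, 2, 5 or 6 (0.0541 to 0.125). By limma-voom 15 members were called at R1 and 6 at R2. Called at both codes were 4 members, LOC_Os01g03020, LOC_Os01g03570, LOC_Os01g05610 and OsHsp18.0. The matching share of all tested loci was not taken, and the calls of LOC_Os01g03020, LOC_Os01g03570 and OsHsp18.0 are a description, as given above.

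The size of the difference was compared between the codes. Over the 262 tested members the log2 fold changes at R1 and R2 had a Pearson r of 0.71 and a Spearman rho of 0.44, and 67.2% had the same sign. Over the 7144 other tested loci r was 0.26, rho 0.21 and 57.0% had the same sign. The 26 tested loci before the stretch, at the end of the chromosome, had r 0.74, rho 0.47 and 53.8% of the same sign, and the 718 beyond it r 0.24, rho 0.19 and 55.4%. The members not called over R1 and R2 (n = 241) had r 0.32 and 64.3% of the same sign, and the other loci not called (n = 6993) r 0.14 and 56.1%. These are correlations across loci, which are not independent and come from 1 shared fit, so no p is given. The test of whether the line difference changed between R2 and R1 gave 0 member calls by edgeR (smallest adjusted p 0.557), against 0% of all tested loci, and neither DESeq2 nor limma-voom called a member (0 each). An unadjusted p under 0.05 was reached by 14 members (5.34%), against 6.02% of all tested loci.

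**Figure D5:**
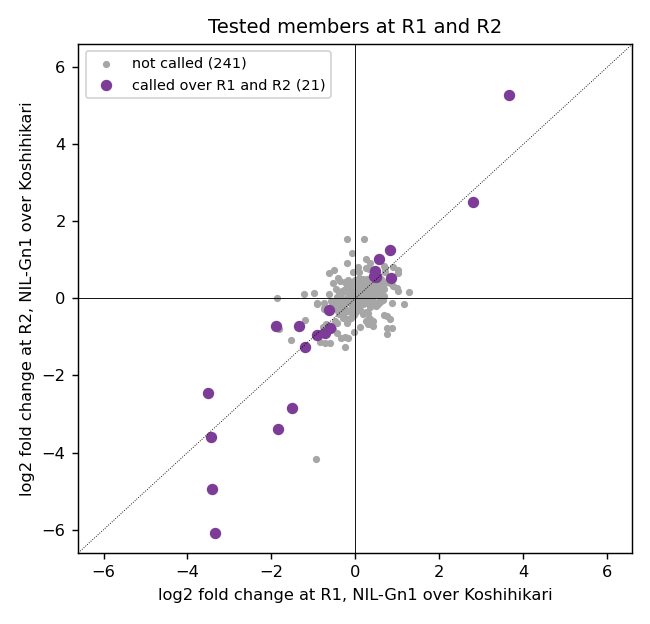
Log2 fold change of NIL-Gn1 over Koshihikari at R1 (horizontal) and R2 (vertical) for the 262 tested members, with the 21 called over R1 and R2 in purple and the 241 others in grey. The dotted line marks equal values. All 21 called members have the same sign at both codes, but they were chosen on the mean of these 2 differences, so this is a description.

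In R4 and R5 tissue NIL-Gn1 had 3 libraries in all, and its single R4 library took its spread from the other groups by assumption. Values at R4 therefore hold no replicate information for NIL-Gn1. At R4 the 1 call was LOC_Os01g03020 (0.382%, against 0.149% of all tested loci, where 0.0405% were lower; log2 fold change -4.01, SE 0.736, adjusted p = 0.000963 by edgeR), and limma-voom called 0. At R5 the 3 calls, all lower, were LOC_Os01g03020 (-4.41, SE 0.728, adjusted p = 0.000111), LOC_Os01g05610 (-1.72, SE 0.334, adjusted p = 0.00141) and LOC_Os01g08860 (-4.68, SE 1.20, adjusted p = 0.0486). These were 1.15% of members, against 0.351% of all tested loci, where 0.108% were lower. All 3 calls at R5 were lost without NIL-Gn1 R5 replicate 1 (adjusted p 0.179 to 0.372). The LOC_Os01g08860 call at R5 was also lost without any other single R5 library (adjusted p 0.103 to 0.274).

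Over R4 and R5 together 9 members were called, 3 higher and 6 lower (3.44%, against 0.783% of all tested loci, where 0.419% were higher and 0.365% lower). Of these, 5 were also called over R1 and R2, namely LOC_Os01g03020, LOC_Os01g03570, LOC_Os01g03680, LOC_Os01g05610 and LOC_Os01g08860. The other 4 were LOC_Os01g07620 (-1.58, adjusted p = 0.0311), LOC_Os01g12860 (-1.93, adjusted p = 0.0455), LOC_Os01g12240 (2.26, adjusted p = 0.0279) and LOC_Os01g13660 (1.27, adjusted p = 0.0134). All 4 lost their calls without NIL-Gn1 R5 replicate 1 (adjusted p 0.0837 to 0.283), and the count was then 3. LOC_Os01g12860 and LOC_Os01g12240 were also not called without NIL-Gn1 R5 replicate 2 (0.131 and 0.0835), and each of the 4 lost its call without at least 2 of the Koshihikari libraries, left out singly (0.0502 to 0.0884). Of the 21 members called over R1 and R2, 19 had the same sign over R4 and R5, a share not taken for called loci elsewhere. The exceptions were LOC_Os01g04650 (0.13, SE 0.238, adjusted p = 0.878) and LOC_Os01g15270 (1.39, SE 0.922, adjusted p = 0.544). The lines did not overlap in these 9 libraries for 25 members, 9 higher and 16 lower (9.54%, against 6.02% of all tested loci).

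Members were also followed from R1 and R2 to R4 and R5 within each line, where fold changes are late over early. In NIL-Gn1 10 members were called, 8 higher and 2 lower at the late codes (3.82%, against 3.93% of all tested loci, where 2.89% were higher and 1.04% lower), and without NIL-Gn1 R5 replicate 1 the count was 5. The lower pair, LOC_Os01g08710 (-2.48, adjusted p = 0.0328) and LOC_Os01g08150 (-1.92, adjusted p = 0.0482), were not called without that library (adjusted p 0.264 and 0.283). In Koshihikari, with 6 late and 10 early libraries, 51 were called, 25 higher and 26 lower (19.5%, against 16.5% of all tested loci, where 8.87% were higher and 7.6% lower). These shares lay near those of all loci. The summed level of 4 green leaf markers (the RBCS genes above, near 0, and CAB1R and CAB2R, seen in all 35 libraries) was 379 to 853 CPM late and 108 to 799 CPM early in NIL-Gn1, and 569.98 to 1824 CPM late and 148 to 478 CPM early in Koshihikari. The part of leaf tissue in these changes was not tested.

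Called in both lines were 6 members, all in the same direction. The matching share of all tested loci was not taken, so this count is a description. LOC_Os01g15320 averaged 276 ± 54.9 CPM late and 6.13 ± 7.44 CPM early in NIL-Gn1 (SD, n = 3 and 16; log2 fold change 5.46, adjusted p = 1.63e-24 by edgeR), and 249 ± 114 CPM late and 16.1 ± 15.9 CPM early in Koshihikari (n = 6 and 10; 3.93, adjusted p = 5.20e-16). LOC_Os01g13130 averaged 90.7 ± 34.99 CPM late and 2.77 ± 5.12 CPM early in NIL-Gn1, and 159 ± 113 CPM late and 3.69 ± 6.10 CPM early in Koshihikari. LOC_Os01g18170 averaged 145 ± 55.3 CPM late and 7.02 ± 15.5 CPM early in NIL-Gn1, and 117 ± 49.1 CPM late and 3.98 ± 6.44 CPM early in Koshihikari. The abundant LOC_Os01g10490 averaged 5121 ± 1245 CPM late and 870.2 ± 424 CPM early in NIL-Gn1, and 4829 ± 1281 CPM late and 550.2 ± 152 CPM early in Koshihikari. LOC_Os01g14850 averaged 9329.9 ± 1074 CPM late and 2986 ± 778 CPM early in NIL-Gn1, and 12836 ± 2304 CPM late and 3099.9 ± 588 CPM early in Koshihikari. TUB1 (LOC_Os01g18050), a beta-tubulin of microtubules, had the smallest change, with a log2 fold change of 0.43 in NIL-Gn1 (adjusted p = 0.0216) and 0.60 in Koshihikari (adjusted p = 2.04e-06). The TUB1 call in NIL-Gn1 was lost without NIL-Gn1 R5 replicate 1 (adjusted p = 0.0533) or 2 (0.127).

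The line difference in this late change was called for LOC_Os01g12240 (log2 difference 2.69, SE 0.618, adjusted p = 0.0131 by edgeR; 0.382% of members, against 0.311% of all tested loci, where 0.216% were higher). It averaged 59.3 ± 16.7 CPM late and 79.3 ± 35.8 CPM early in NIL-Gn1, and 11.9 ± 7.52 CPM late and 104 ± 35.3 CPM early in Koshihikari. At R4 it had 75.1 CPM in NIL-Gn1, against 11.0, 0 and 22.1 CPM in Koshihikari, and at R5 41.8 and 61.0 CPM, against 9.62, 11.1 and 17.4 CPM. The lines overlapped early and did not overlap late. Leaving out Koshihikari R4 replicate 3, NIL-Gn1 R5 replicate 1 or NIL-Gn1 R5 replicate 2 ended the call (adjusted p 0.0605, 0.0619 and 0.0534).

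Of 38 gene names looked up in the stretch, 36 were placed on chromosome 1 in the same order by the RefSeq table, 28 belonged to members and 21 were tested. Over R1 and R2 4 of the 21 were called between lines, H2B.4 and CAM1-3 higher and H2B.3 and OsHsp18.0 lower, where 2.32% of all tested loci were called (0.608% higher and 1.71% lower) and 8.02% of the members. The median log2 fold change of the 21 was -0.03, against 0.02 for all tested loci. The tested auxin genes OsIAA2 and OsIAA3, repressors of auxin response, and OsARF1, an auxin response factor, were not called between lines (0.21, -0.22 and -0.53). OsGI, the rice GIGANTEA gene of clock and flowering time, was not called either (-0.17, adjusted p = 0.823), nor was OsDREB2A, a stress transcription factor (-0.99, adjusted p = 0.187). OsMADS3, a floral organ identity gene, had 0 UMIs in all libraries.

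Between early and late tissue of Koshihikari 8 of the 21 placed and tested genes were called, 5 higher and 3 lower late, where 16.5% of all tested loci were called (8.87% higher and 7.6% lower). Of these 8, TUB1 was also called in NIL-Gn1. CAM3, a calmodulin gene, averaged 300.1 ± 119 CPM late and 134 ± 43.1 CPM early in Koshihikari (SD, n = 6 and 10; log2 fold change 1.17, SE 0.213, adjusted p = 1.35e-05 by edgeR). CAM1-3, another calmodulin gene, rose as well (0.61, SE 0.174, adjusted p = 0.00724), as did OsTPR2, a TOPLESS-related corepressor (0.93, SE 0.305, adjusted p = 0.0229). Leaving out Koshihikari R4 replicate 4 ended the OsTPR2 call (0.78, adjusted p = 0.112). OsAGO4a, an Argonaute of RNA-directed DNA methylation, fell (-0.62, SE 0.128, adjusted p = 0.000125). OsGI averaged 131 ± 77.2 CPM late and 414 ± 189 CPM early in Koshihikari (-1.58, SE 0.416, adjusted p = 0.00823). OsDREB2A had a UMI in 2 of 6 late and 9 of 10 early Koshihikari libraries (-3.47, SE 0.917, adjusted p = 0.00364). H2B.5 rose slightly (0.31, SE 0.102, adjusted p = 0.0212), but not when Koshihikari R4 replicate 2 or 4 was left out (adjusted p 0.0513 and 0.0592). For these 8 genes the interaction of line with late tissue had adjusted p-values from 0.307 to 0.902, none of them a call.

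The 91 members below the filter on low counts had 100 to 243 UMIs in all, apart from OsCKX2. In a fit with no filter 2 of them were called over R1 and R2, LOC_Os01g06490 (log2 fold change -1.32, adjusted p = 0.0409 by edgeR) and LOC_Os01g07360 (1.73, adjusted p = 0.0492). At R1 alone and at R2 alone 0 of them were called. The share of all loci called in that fit was not taken, so these counts are a description.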

How the data were processed

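Raw UMI counts of 55801 loci in 35 libraries form the deposited table, and every column was mapped to a sample. Bowtie2 and Subread 2.1 are named per the submitters' processing notes. What each did, and which genome build and annotation were used, is not given in the sources used here. Libraries were grouped by line and R code. The model for all loci was edgeR 4.0.16 in R 4.3.3 (TMM scaling, filterByExpr, robust quasi-likelihood F-test; 8 groups; common dispersion 0.0444), with Benjamini-Hochberg adjustment over 7406 loci in each comparison, and calls were made at an adjusted p under 0.05. The SE was the log2 fold change divided by the square root of F. Counting ratios use raw library totals and 95% exact intervals (scipy 1.17.1). DESeq2 1.42.0 and limma 3.58.1 (voom with quality weights) were alternatives, as were other scalings, filters, floors, block sizes, the groups compared alone, a block for the replicate number and fits lacking 1 library each. The R4 and R5 contrast and the left-out libraries of the near-off rule were added after the data were seen.

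The members and lists were chosen with earlier results of these data known. Named genes were OsCKX2, all members called in a line difference, the near-off members, the called members outermost and nearest to OsCKX2, and list genes. Gene names rest on lists of locus and symbol pairs, and a name was used where the RefSeq table (assembly ASM3414082v1) held 1 entry for it on the same chromosome in the same order. No loci are given product names otherwise, and no sequences were used here.

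Over 64 pairs of same-numbered libraries the correlation of their deviations from the group means ran from -0.0552 to 0.141. The 1 pair above 0.1 was Koshihikari R2 replicate 1 with NIL-Gn1 R5 replicate 1. No library looked like a copy of another: the counts of 83 within-group pairs gave a chi-square of 1.44 or more for each degree of freedom. At totals of 76743 to 375071 UMIs, 3 counts equal 39.1 to 8.00 CPM. The fits were tested on simulated counts with 100 loci changed 2-fold in each comparison, at 1 dispersion shared by all loci. Of these 70 were recovered over R1 and R2, 42 at R1, 33 at R2, 7 at R5 and 25 over R4 and R5. The interactions with R2 and with late tissue recovered 17 and 18, so 2-fold differences could often be missed there and at the late codes.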

Additional observations from a re-analysis of the deposited data

Results flagged for a closer look

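In 102 groups of 4 to 10 libraries, taken over the 26 members called in any line difference, 13 values stood far from the rest of their group. For normally distributed values chance flags about 1 group in 20. That rate need not hold for sparse counts, where 1 UMI among libraries at 0 was flagged for LOC_Os01g05510. Of the 13 values, 5 came from Koshihikari R2 replicate 1. That library had 1343 CPM of LOC_Os01g03340 (others 0 to 48.5), 2345 CPM of LOC_Os01g03360 (others 0 to 146) and 18161 CPM of LOC_Os01g15270 (others 126 to 2136). It was low for both histone genes, with 208 CPM of LOC_Os01g05610 (others 566 to 689) and 134 CPM of LOC_Os01g05630 (others 265 to 291).

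Koshihikari R1 replicate 2 had 98.1 CPM of LOC_Os01g10140 (others 229 to 271) and 10.9 CPM of LOC_Os01g05510, where its group was otherwise at 0. Koshihikari R1 replicate 5 had 143 CPM of LOC_Os01g13660 (others 84.6 to 101). NIL-Gn1 R1 replicate 4 had 85.7 CPM of LOC_Os01g05510 (others 0 to 35.1) and 235 CPM of LOC_Os01g13660 (others 118 to 169). NIL-Gn1 R1 replicate 7 had 314 CPM of LOC_Os01g12650 (others 149 to 211). NIL-Gn1 R2 replicate 6 had 472 CPM of LOC_Os01g03680 (others 95.3 to 209.5), and NIL-Gn1 R2 replicate 2 had 769 CPM of LOC_Os01g15270 (others 271 to 501). Each high or low value is 1 library, and its cause was not tested.

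The change between early and late tissue differed between the lines for LOC_Os01g12240, with a log2 difference of 2.69 (adjusted p = 0.0131 by edgeR's interaction test). This was 1 of 262 tested members, and it rests on 3 late NIL-Gn1 libraries.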

How the results depend on the processing

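Of the 21 members called over R1 and R2, 15 kept their call in every alternative fit that tested them, and leaving out 1 library gave 19 to 22 calls. The cause of the following changes was not tested. At R1 limma-voom called 15 (8 as reported). At R2 (10 as reported) a filter at a mean of 10 counts gave 6, limma-voom 6, a floor of 200 UMIs 6, and the groups compared alone 2. At R4 (1 as reported) limma-voom called 0 and the groups compared alone gave 2. In NIL-Gn1 between late and early (10 as reported) the mean-10 filter gave 5 and limma-voom 17. The interaction with late tissue (1 as reported) gave 2 with no filter and 2 with limma-voom. A fold of 4 gave 9 near-off members and a fold of 16 gave 3 (5 as reported), with no share of all loci taken. Blocks of 10 members held a call in 41.7% of blocks, against 72.2% of blocks of 20.

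Leaving out 1 library gave 6 to 10 calls at R1, 5 to 11 at R2, 1 at R4, 0 to 4 at R5, 3 to 10 over R4 and R5, 44 to 55 for late tissue in Koshihikari, 5 to 11 in NIL-Gn1, 0 to 0 and 0 to 2 for the interactions with R2 and with late tissue, and 3 to 6 near-off members. Without NIL-Gn1 R5 replicate 1 the count was 0 at R5, 3 over R4 and R5 and 5 for late tissue in NIL-Gn1. The interaction with late tissue gave 2 without Koshihikari R2 replicate 4 or 5 or Koshihikari R5 replicate 3, and 0 without Koshihikari R4 replicate 3 or either NIL-Gn1 R5 library. Without Koshihikari R2 replicate 1 there were 3 near-off members. R4 contrasts could not be fitted without the only NIL-Gn1 R4 library.

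Whether the replicate numbers pair the libraries was not settled, since low correlations of same-numbered libraries at these depths cannot exclude it. With the number as a block the calls were 16 over R1 and R2, 8 at R1, 5 at R2, 0 at R4, 2 at R5, 3 over R4 and R5, 47 for late tissue in Koshihikari, 6 in NIL-Gn1, and 0 for both interactions.

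Depth limits the low members most: 3 counts in a library equal 8.00 to 39.1 CPM, above the level of OsCKX2 and of several loci in the line where they were near off.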
